A study of Mus musculus with 167 samples.

Results

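The miRNA content of the erythrocyte (RBC) fraction was compared between C3H mice exposed to whole thorax lung irradiation (WTLI) and sham controls. The members were the libraries labelled RBC from the C3Hf/Sed/Kam strain, which made up 15 of the 167 libraries of the series, 7 from irradiated and 8 from sham mice. All were from female mice, per the labels, that were alive at the study endpoint in month 4. WTLI was a single X-ray dose to the chest of anesthetized gnotobiotic young adult mice with the rest of the body shielded by lead, at a dose the study had estimated to be lethal for most C3H mice by that endpoint. The irradiated group therefore held survivors. Blood was drawn from the heart after euthanasia, and plasma was taken off leukocytes (WBC) and RBC by centrifugation. The series also covered lung, heart and brain, and the same tissues of C57Bl/6 mice in month 6. Each sample title carried the letter A or B, which the sources used here do not explain. Letter A marked 3 irradiated and 4 sham RBC libraries, and letter B marked 4 of each.

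Mature mammalian erythrocytes have no nucleus, so their miRNAs were made by precursors in the bone marrow and are carried through the life of the cell. miRNAs are short RNAs that guide silencing complexes to messages, mainly through pairing of the seed, bases 2 to 8 from the 5′ end. miR-451a and miR-144, made from 1 precursor transcript, are induced by GATA1 during red cell maturation, and miR-451a is cut by the Argonaute protein and not by Dicer. miR-486a-5p is another erythroid miRNA, and miR-16 and let-7 members are abundant in blood cells of many kinds.

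The most abundant and the erythroid miRNAs were the following, with the seed in capitals (mature sequences from RefSeq, GRCm38.p6). They are shown because they were the most abundant or are known from red cells.
miR-16-5p: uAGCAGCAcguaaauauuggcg
let-7i-5p: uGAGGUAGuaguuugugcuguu
miR-451a: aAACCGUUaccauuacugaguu
miR-144-3p: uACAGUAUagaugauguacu
miR-144-5p: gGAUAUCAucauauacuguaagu

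The next set holds the 8 miRNAs with the smallest edgeR p among those higher in irradiated libraries, and is shown to make plain which of its members share a seed. let-7b-5p and let-7c-5p had the let-7 seed, and all others here had a seed of their own.
miR-18b-5p: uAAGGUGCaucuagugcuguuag
miR-196b-5p: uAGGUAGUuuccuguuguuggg
miR-26b-5p: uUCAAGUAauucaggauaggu
miR-501-3p: aAUGCACCcgggcaaggauuug
miR-1981-5p: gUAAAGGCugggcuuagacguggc
miR-30e-3p: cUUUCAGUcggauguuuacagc
let-7b-5p: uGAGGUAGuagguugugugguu
let-7c-5p: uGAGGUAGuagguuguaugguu

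The last set holds 7 of the miRNAs with lower irradiated means and a small unadjusted limma p, those whose values are described or plotted here. miR-497a-5p had the seed of miR-16-5p, and the 5p arms of miR-30a and miR-30e had 1 seed in common.
miR-497a-5p: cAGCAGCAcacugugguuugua
miR-210-3p: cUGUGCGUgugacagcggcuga
miR-30a-5p: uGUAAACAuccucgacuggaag
miR-30e-5p: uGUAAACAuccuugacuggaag
miR-203-3p: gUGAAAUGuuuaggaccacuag
miR-34a-5p: uGGCAGUGucuuagcugguugu
miR-19a-3p: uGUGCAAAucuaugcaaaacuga

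Of the 1915 miRNAs in the deposited table, 1623 had a sequence in RefSeq under the same name. miR-486a-5p, miR-486b-5p, miR-126a-5p, miR-222-5p and miR-122-5p are named only.

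C3H RBC libraries held 2510857 to 3747375 counts. The mean total was 3071580 ± 504894 in irradiated mice (SD, n = 7) and 3204830 ± 405268 in sham mice (SD, n = 8), with an exact permutation p of 0.57 (two-sided). Between 318 and 408 miRNAs were detected in irradiated and 371 to 429 in sham libraries, with means of 362.7 ± 36.6 and 393.1 ± 18.9 (exact permutation p = 0.062, and 0.124 after Benjamini-Hochberg adjustment over these 2 measures). The difference in the number detected was -4.83 in letter A and -52.8 in letter B. Levels below are RPM, each count scaled to the total of its library, and changes are log2 differences of quantile-normalised log2 RPM, irradiated minus sham, with the standard error (SE). RPM as such was lower in irradiated libraries by a median log2 of -0.35 over all miRNAs tested, a shift that quantile normalisation takes out.

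The labelled fraction was checked against marker miRNAs. The summed RPM of the 4 erythroid miRNAs was 46232 to 74660 in sham RBC and 30121 to 44647 in the sham WBC libraries of the same strain (n = 5), so the sham ranges did not overlap. In irradiated libraries these sums were 28566 to 85713 in RBC and 17913 to 36365 in WBC (n = 6), and the ranges overlapped. The 5 leukocyte miRNAs did not set the fractions apart in that way, because their sum was 19776 to 36641 RPM in sham RBC and 15266 to 22428 RPM in sham WBC, and most of it was miR-142a-5p. Of the erythroid miRNAs, miR-486a-5p did not set the fractions apart, with a median of 7015 RPM in sham RBC and 12113 RPM in sham WBC. miR-150-5p, a lymphocyte miRNA, had a median of 73.9 RPM in sham RBC and 157 RPM in sham WBC. The cardiac miR-208a-3p had 0 counts in every C3H RBC library. In such bulk samples, fewer cells of a type and less RNA per cell cannot be told apart.

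Irradiated replicates 6 and 7, both of letter B, stood apart from the other 13 C3H libraries. On the first principal component, which held 41.2% of the variance over 229 miRNAs, they lay at 16.9 and 18.9 and the others lay from -8.74 to 2.86. After quantile normalisation both were higher than all of the other 13 libraries for 52 miRNAs (22.7%) and lower for 46 (20.1%). Replicate 6 was the highest or lowest of the 15 libraries for 28.4% of miRNAs and replicate 7 for 31.4%, while in the other 13 this share was 3.49 to 17.5%. They also held the smallest leukocyte sums, 10917 and 8203 RPM, with 15922 RPM in irradiated replicate 5 next. They had 338 and 318 detected miRNAs, close to the 325 of irradiated replicate 1. Their totals, 2745940 and 3522574, were within the range of the rest. Most counts of calls, lists and main miRNAs are therefore given with and without these libraries, and what sets them apart was not tested.

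The erythroid miRNAs differed among themselves in replicates 6 and 7. In sham libraries miR-451a was at 11707 to 21109 RPM with a median of 18682. In irradiated libraries it was at 7511 to 28904 RPM in replicates 1 to 5, and at 3562 and 2463 RPM in replicates 6 and 7. Those were the lowest of the 15 values, and replicate 3, of letter A, had the highest. Replicate 5, of letter B, was the third lowest, at 7511 RPM, and was also below every sham library. Both arms of miR-144, which shares its transcript with miR-451a, were likewise lowest in replicates 6 and 7. miR-144-3p was at 5005 and 4457 RPM there against 11423 to 23930 in sham libraries, and miR-144-5p was at 3296 and 1971 RPM against 11212 to 24507. In replicate 5 miR-144-3p was at 5692 RPM, also below every sham library. The sum of the 4 erythroid miRNAs was 29011 RPM in replicate 5, against 28566 and 31508 RPM in replicates 6 and 7. In replicates 6 and 7 miR-486a-5p went the other way. It was at 4430 to 11377 RPM in sham libraries, 5049 to 8509 in irradiated replicates 1 to 5, and 16703 and 22618 in replicates 6 and 7. For the erythroid group the log2 change was -0.33 ± 0.27 for miR-451a, -0.34 ± 0.16 for miR-144-3p, -0.43 ± 0.24 for miR-144-5p and 0.49 ± 0.33 for miR-486a-5p (SE), and none passed the limma test (adjusted p of 0.248 or more). The median of the 4 was -0.33, against -0.04 over all 229 miRNAs tested, and without replicates 6 and 7 it was 0.03.

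**Figure D1:**
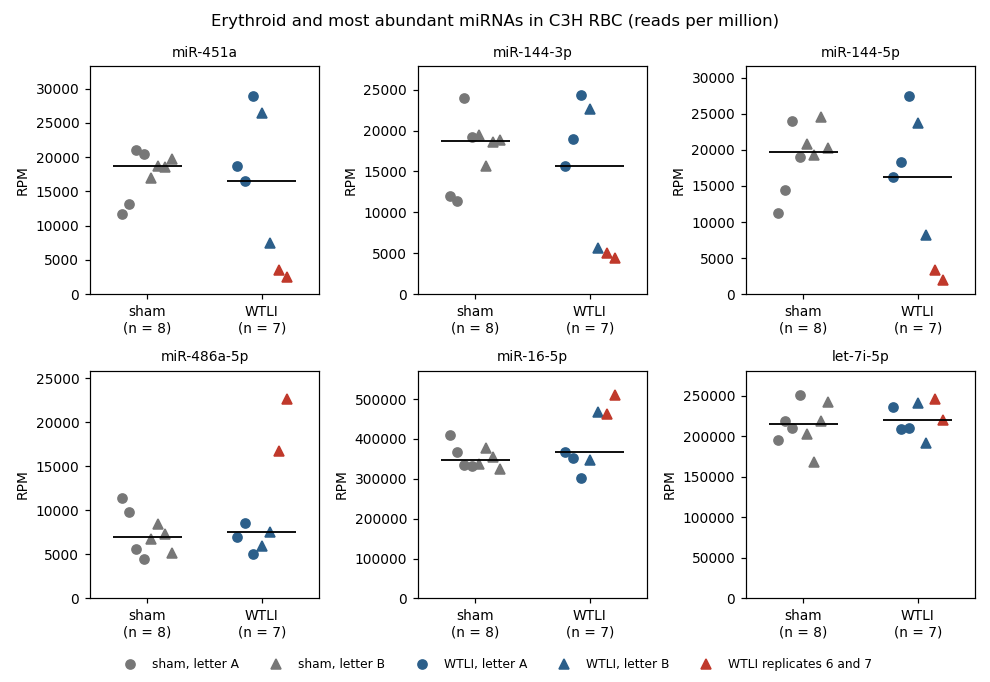
RPM of the erythroid miR-451a, miR-144-3p, miR-144-5p and miR-486a-5p and of the abundant miR-16-5p and let-7i-5p in 8 sham and 7 irradiated (WTLI) C3H RBC libraries; each point is a library, circles are letter A, triangles letter B, red marks irradiated replicates 6 and 7, and bars are medians. The red points are lowest for miR-451a and both arms of miR-144 and highest for miR-486a-5p.

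miR-16-5p was the first miRNA in rank in all 15 libraries, and let-7i-5p the second. miR-16-5p took 324564 to 408900 RPM in sham libraries, with a median of 345926, and 302017 to 508962 RPM in irradiated ones, with a median of 368214. Of the irradiated libraries 3, replicates 5, 6 and 7, were above all sham values, and 1 was below. Quantile normalisation gives equal values to equal ranks, so for these miRNAs that fit could return no change, and the test says nothing about them. By edgeR, with TMM scaling, the log2 change of miR-16-5p was 0.75 (adjusted p = 0.067). let-7i-5p was at 168062 to 251274 RPM in sham and 192089 to 245671 in irradiated libraries, and the groups overlapped throughout. let-7f-5p, miR-93-5p and miR-25-3p followed, the last a member of the miR-17-92 related clusters. miR-25-3p had 40195 to 55622 RPM in sham and 25184 to 43867 in irradiated libraries, of which 4 were below all sham values. Its rank was 5 or 6 in all 15 libraries, so quantile normalisation left it little room to change, and its limma log2 change was -0.13.

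In the test the study used, limma on voom log2 RPM with quantile normalisation, 0 of 229 miRNAs differed between irradiated and sham C3H RBC at an adjusted p under 0.05 (0%), and so 0 also passed with the fold minimum the study used elsewhere (1.17 on the log2 scale). The smallest adjusted p was 0.13. The study gives both unadjusted and adjusted p, and which of them its threshold was set on was not examined here. At an unadjusted p under 0.05 there were 43 miRNAs (18.8%), of which 18 were higher (7.86%) and 25 lower (10.9%). For 0 of the 229 (0%) did the irradiated and sham values not overlap. With TMM scaling that split was 18 higher and 14 lower, and with library size alone it was 6 higher and 44 lower, where the median log2 change over all miRNAs was -0.35 and not -0.04. The other tools gave different counts. edgeR's quasi-likelihood test called 12 miRNAs, all higher (5.24%), and DESeq2 called 19 higher (8.3%) and 3 lower (1.31%), which included all 12 of edgeR. Without irradiated replicates 6 and 7, limma, edgeR and DESeq2 each called 0, and 5 of 225 miRNAs (2.22%) had an unadjusted limma p under 0.05. Without replicate 6 alone edgeR called 0 and DESeq2 3, and without replicate 7 alone both called 0.

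**Figure D2:**
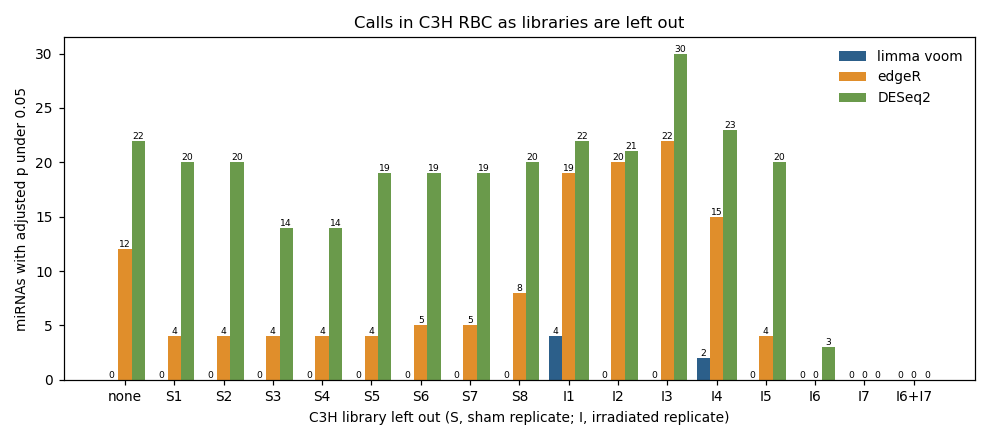
Number of miRNAs with an adjusted p under 0.05 in C3H RBC by limma voom, edgeR and DESeq2 with all libraries and as each C3H library was left out (S, sham; I, irradiated). edgeR ranged from 0 to 22 and DESeq2 from 0 to 30 over the single libraries, and both called 0 without I6 and I7.

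Of the 12 miRNAs that edgeR called, 8 had their top RPM values in irradiated replicates 6 and 7, above all of the other 13 libraries. The same held for 15 of the 22 that DESeq2 called, and another 2 had their lowest values there. Over all 229 miRNAs, replicates 6 and 7 were above the rest in RPM for 20 and below for 89. Without both replicates the limma log2 change was smaller in size for all 11 of the edgeR calls that could still be tested, and the median size over these fell from 0.79 to 0.30. Over all miRNAs it was smaller for 162 of 225, and the median size fell from 0.33 to 0.17. The calls were made with both replicates in, so a fall without them was in part built in. Within letter B the median size over the 12 was 1.34, and within letter A, which does not hold replicates 6 and 7, it was 0.10. Over all miRNAs tested these medians were 0.67 and 0.19, and 174 of 224 were smaller in letter A.

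**Figure D3:**
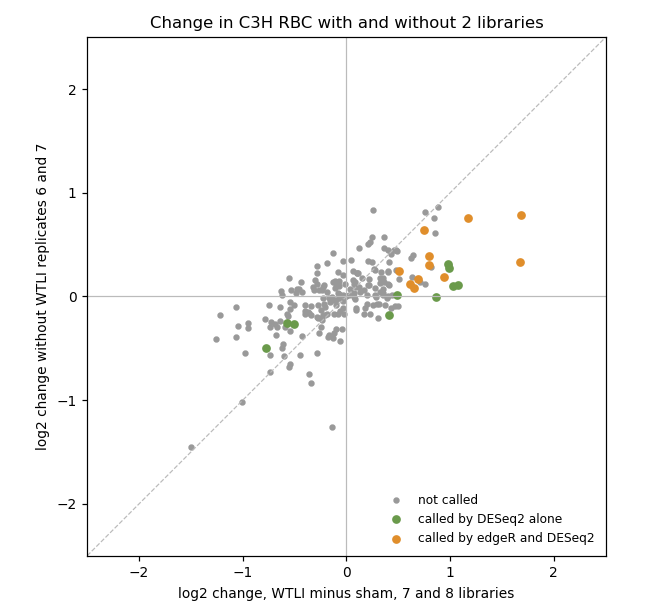
Limma log2 change (irradiated minus sham) with all 15 C3H RBC libraries on the horizontal axis and without irradiated replicates 6 and 7 on the vertical axis, for the 225 miRNAs tested both ways; the dashed line marks equal values and colour marks miRNAs called by edgeR and DESeq2, or DESeq2 alone, with all libraries. The 11 edgeR calls shown lie below the dashed line on the side of higher values.

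miR-1981-5p and miR-501-3p, both low in count, showed this most. miR-1981-5p (intron of Marc2, chr1:184822465-184822488, minus strand) was at 0.284 to 2.68 RPM in sham libraries, 0.357 to 4.91 in irradiated replicates 1 to 5, and 20.8 and 27.8 in replicates 6 and 7. Its log2 change was 1.68 ± 0.78 (SE; limma adjusted p = 0.25), 3.17 in letter B and -0.31 in letter A, while edgeR gave an adjusted p of 0.0078. miR-501-3p (intron of Clcn5, chrX:7241270-7241291, minus strand) had 1 to 4 counts in every sham library, 1 to 6 counts in irradiated replicates 1 to 5, and 23 and 28 counts in replicates 6 and 7. Apart from those 2 libraries, both miRNAs rested on 13 counts or fewer in each C3H library.

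miR-196b-5p lies in an exon of Hoxa9 (chr6:52230129-52230150, minus strand) and is known from HOXA-expressing blood progenitors. In sham libraries it was at 19.0 to 57.7 RPM with a median of 48.5. In irradiated libraries it was at 39.8, 55.1, 50.6, 142, 45.8, 235 and 273 RPM in replicates 1 to 7. Replicates 4, 6 and 7, all of letter B, were above every sham library and the other 4 were within the sham range. The log2 change was 1.68 ± 0.49 (SE; limma adjusted p = 0.13), and edgeR and DESeq2 gave adjusted p of 0.0078 and 0.00090. It was 0.72 in letter A, 2.24 in letter B and 0.79 ± 0.39 without replicates 6 and 7. Sham libraries of letter A were at 19.0 to 45.5 RPM and those of letter B at 51.5 to 57.7, without overlap.

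miR-18b-5p, of the X-linked cluster related to miR-17-92, had the smallest unadjusted limma p, 0.0011. Sham libraries had 11 to 44 counts, or 3.74 to 12.5 RPM. Irradiated libraries had 6.37, 9.82, 18.2, 13.6, 12.6, 19.7 and 15.0 RPM in replicates 1 to 7, and 5 of the 7 were above all sham values. The log2 change was 1.17 ± 0.33 (SE; adjusted p = 0.13), it was 0.69 in letter A and 1.43 in letter B, and without replicates 6 and 7 it was 0.76. miR-18a-5p, which has the same seed and lies in the miR-17-92 cluster itself, had a log2 change of 0.35 ± 0.19.

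miR-26b-5p (intron of Ctdsp1, chr1:74394324-74394344, plus strand) was at 1538 to 2932 RPM in sham libraries, 2215 to 3862 in irradiated replicates 1 to 5, and 6398 and 5644 in replicates 6 and 7. Its log2 change was 0.79 ± 0.27 (SE; limma adjusted p = 0.14), was 0.09 and 1.39 within letters A and B, and was 0.30 without replicates 6 and 7. Its relative miR-26a-5p, with the same seed, was at 1374 and 821 RPM in replicates 6 and 7 and at 2084 to 3288 RPM in sham libraries, but after quantile normalisation its log2 change was 0.09 ± 0.12 (SE).

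miR-30e-3p (intron of Nfyc) was called by edgeR and had its highest value in another library. It was at 1.65 to 5.12 RPM in sham libraries and at 3.58, 7.93, 18.5, 2.54, 4.82, 6.92 and 3.97 in irradiated replicates 1 to 7. The medians were 4.85 and 4.82, and the highest value was in replicate 3, which also held the highest leukocyte sum, 44771 RPM, and the highest erythroid sum. miR-155-5p and miR-150-5p, both of lymphocytes and other leukocytes, were highest in that library too, at 27.5 and 426 RPM against medians of 3.93 and 73.9 in sham libraries. Without replicate 3 edgeR called 22 miRNAs, and miR-30e-3p was not among them. edgeR also did not call it without any 1 of the 8 sham libraries or of irradiated replicates 5, 6 and 7, and did without replicate 1, 2 or 4. The limma log2 change of miR-30e-3p was 0.74 (unadjusted p = 0.0048), and 0.64 without replicates 6 and 7 (unadjusted p = 0.024). The part of leukocyte RNA in its value was not tested.

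**Figure D4:**
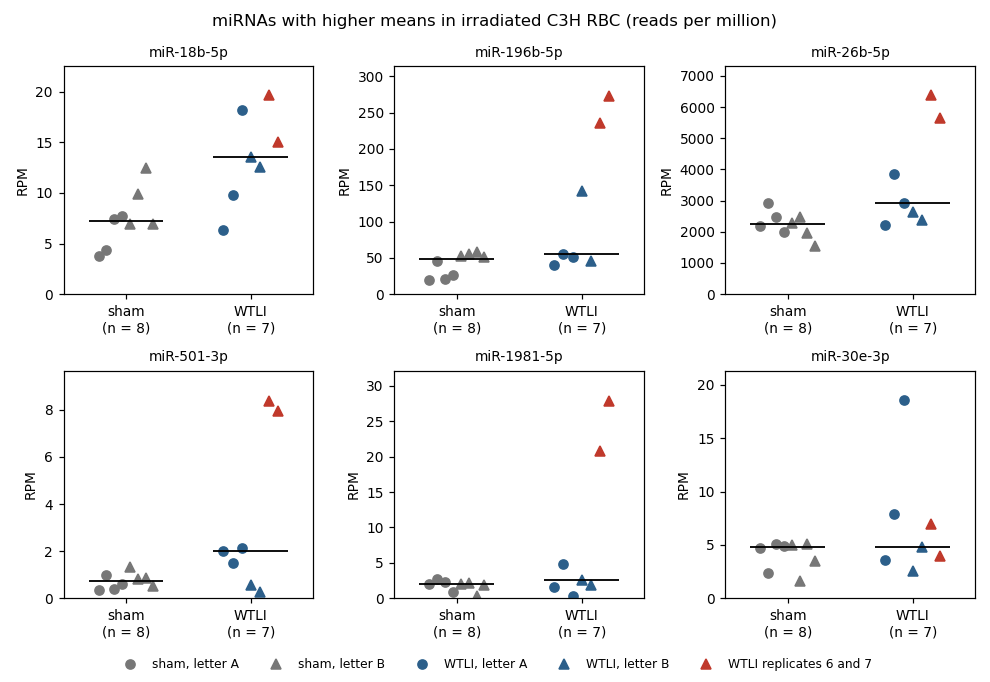
RPM of 6 miRNAs with higher irradiated means in 8 sham and 7 irradiated (WTLI) C3H RBC libraries; each point is a library, circles are letter A, triangles letter B, red marks irradiated replicates 6 and 7, and bars are medians. The red points are the highest for miR-196b-5p, miR-26b-5p, miR-501-3p and miR-1981-5p, while for miR-30e-3p the highest point is replicate 3.

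The other miRNAs called by edgeR were let-7b-5p, let-7c-5p, miR-872-5p, miR-423-5p, miR-24-3p and miR-181d-5p, with limma log2 changes of 0.50 to 0.94 and limma adjusted p of 0.21 to 0.33. let-7b-5p was at 3838 to 6058 RPM in sham libraries and 3564 to 6797 in irradiated replicates 1 to 5, and at 9552 and 10742 in replicates 6 and 7. let-7c-5p was at 5807 to 9395 RPM in sham and 5779 to 9605 in irradiated libraries, with overlap. miR-181d-5p was at 29.6 to 48.2 RPM in sham and 40.6 to 67.0 in irradiated libraries, of which 5 were above all sham values, and its log2 change was 0.80 ± 0.30 (SE). Within letters A and B that change was 0.11 and 1.28. DESeq2 alone added miR-185-3p, miR-1198-5p, miR-3074-5p, miR-486a-5p, miR-486b-5p, miR-183-5p and miR-1970 as higher. miR-486a-5p and miR-486b-5p had almost the same counts in every library, 4430 to 22618 and 4439 to 22677 RPM, and whether these are separate measurements was not tested. miR-3074-5p overlaps miR-24-3p on the opposite strand at chr8:84208873-84208894.

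Among lower miRNAs, miR-497a-5p was called by DESeq2 and had the second smallest limma p. Sham libraries were at 20.8 to 30.2 RPM. Irradiated libraries were at 17.1, 24.2, 20.7, 25.7, 8.58, 5.46 and 5.11 RPM in replicates 1 to 7, and 5 of the 7 were below all sham values. The log2 change was -0.78 ± 0.22 (SE; limma adjusted p = 0.13, DESeq2 adjusted p = 0.045), it was -0.50 in letter A and -0.96 in letter B, and -0.50 without replicates 6 and 7. It shares the seed of miR-16-5p but is made from another locus (chr11:70234730-70234751, plus strand).

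miR-30a-5p was at 2752 to 4074 RPM in sham libraries and at 660 to 3839 in irradiated ones, of which 6 were below all sham values. Only replicate 3, at 3839 RPM, was within the sham range. The log2 change was -0.57 ± 0.19 (SE; limma adjusted p = 0.14), and DESeq2 called it (adjusted p = 0.016). In letter A it was -0.10, in letter B -0.94, and without replicates 6 and 7 it was -0.25. miR-30e-5p, with the same seed, was at 4458 to 7760 RPM in sham and 1010 to 9310 in irradiated libraries, with a log2 change of -0.68 ± 0.23 that was 0.01 in letter A and -1.25 in letter B.

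miR-210-3p, a target of hypoxia-inducible factor, was at 78.7 to 116 RPM in sham libraries and 55.2 to 102 RPM in irradiated replicates 1 to 5, and at 16.02 and 10.5 RPM in replicates 6 and 7. All 4 irradiated libraries of letter B were below every sham library, and the 3 of letter A were within the sham range. The log2 change was -0.67 ± 0.22 (SE; adjusted p = 0.14), and it was -0.31 and -0.94 within letters A and B, and -0.30 without replicates 6 and 7. miR-203-3p, an epithelial miRNA of low count here, had 7 to 46 counts in sham libraries and 0, 20, 39, 4, 3, 5 and 1 in irradiated replicates 1 to 7. Its log2 change was -1.50 ± 0.51 (SE; adjusted p = 0.14), and it moved little without replicates 6 and 7, to -1.45, or within letters A and B, to -1.31 and -1.54. miR-34a-5p, a direct target of p53, was at 12.6 to 26.2 RPM in sham libraries, 8.84 to 26.4 in irradiated replicates 1 to 5 and 1.82 and 1.14 in replicates 6 and 7. Its log2 change was -0.95 ± 0.36 (SE; adjusted p = 0.21), 0.07 in letter A, -1.67 in letter B and -0.31 without replicates 6 and 7.

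**Figure D5:**
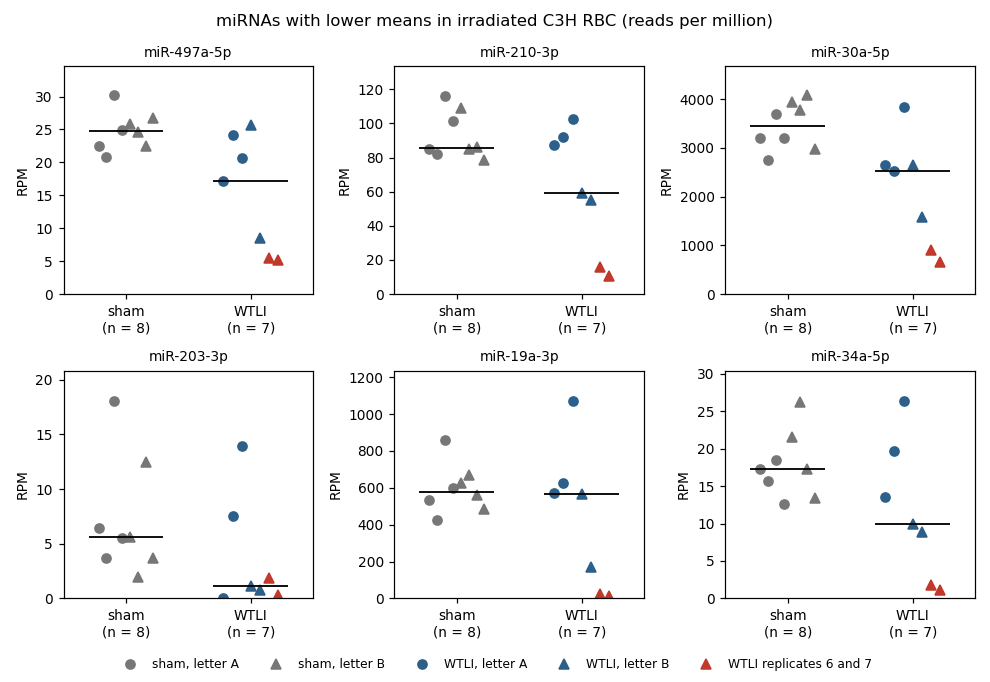
RPM of 6 miRNAs with lower irradiated means in 8 sham and 7 irradiated (WTLI) C3H RBC libraries; each point is a library, circles are letter A, triangles letter B, red marks irradiated replicates 6 and 7, and bars are medians. The red points are the lowest for miR-497a-5p, miR-210-3p, miR-30a-5p, miR-19a-3p and miR-34a-5p.

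miR-126a-5p, miR-32-5p, miR-16-2-3p, miR-19a-3p and miR-141-3p completed the lower miRNAs with the smallest p, with log2 changes of -0.64 to -1.26, and all 5 were lowest in replicates 6 and 7. miR-222-5p, at 0.392 to 3.40 RPM, had a log2 change of 0.86 ± 0.34 (SE). The third miRNA that DESeq2 called lower was miR-122-5p of liver. It was at 0.827 to 4129 RPM in sham libraries, with a median of 18.1 and the highest value in replicate 3, and at 1.99 to 667 RPM in irradiated ones. Its limma log2 change was -0.50 ± 1.37 (SE), and it was 0.49 without sham replicate 3.

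Below the count filter, miR-669f-3p was the 1 miRNA of 816 with at least 1 count in any RBC library (0.123%) whose irradiated and sham RPM did not overlap. It was chosen after its values were seen. It had 1 to 5 counts, with a median of 2, in all 8 sham libraries and 0 in all 7 irradiated libraries. A count of 0 in a library allows up to 3 counts, so at this depth most of these single libraries could not be told apart. The miR-669 family has many near-identical copies, between which reads can be split.

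miRNA families were next read as groups. Over all 229 miRNAs tested, 7.86% were higher and 10.9% lower at an unadjusted p under 0.05, and the counts of members by that criterion stand against these shares. Of the 9 let-7 and miR-98 members tested, 2 were higher and 0 lower at an unadjusted p under 0.05, with a median log2 change of 0.00 (0.10 without replicates 6 and 7, against 0.02 over all miRNAs). That median was the value of let-7i-5p, which quantile normalisation holds at 0, and it was 0.22 with TMM scaling and 0.22 by edgeR. In the miR-30 family 0 of 5 were higher and 2 lower, with a median of -0.57 that was -0.25 without these replicates. In the miR-181 family 1 of 4 was higher and 0 lower (median 0.52, and 0.31 without). In the family of miR-15 and miR-16 0 of 6 were higher and 1 lower (median -0.24, and 0.13 without). That median rested in part on miR-16-5p, likewise held at 0, and it was -0.14 with TMM scaling and -0.04 by edgeR. miR-15a-5p, its member beside miR-16 on chromosome 14, was at 53.5 and 54.2 RPM in replicates 6 and 7 and at 312 RPM or more in all other irradiated and 583 or more in all sham libraries, while miR-16-5p was among the highest in replicates 6 and 7.

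The miR-17-92 cluster and its paralogs, which support the growth of blood progenitors, had members on both sides. Of the 12 members listed 1 was higher and 2 lower, where 18.8% of all miRNAs passed in either direction, with a median of -0.05 (0.04 without replicates 6 and 7). The lower members were miR-19a-3p, at -1.22 ± 0.49, and miR-19b-3p, at -1.07 ± 0.45 (SE), which share a seed, and the higher was miR-106a-5p at 0.46 ± 0.22. The list did not hold miR-18b-5p of the X-linked cluster, described above, which was also higher, so that with it 2 of 13 were higher and 2 lower. miR-19b-3p was at 663 to 1424 RPM in sham libraries, 275 to 1954 in irradiated replicates 1 to 5, and 48.4 and 30.9 in replicates 6 and 7. Without these replicates the log2 changes of miR-19a-3p and miR-19b-3p were -0.18 and -0.10.

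Of the 3 members of the miR-101 family, 0 were higher and 2 lower, where 7.86% of all miRNAs were higher and 10.9% lower (median -0.57, and -0.08 without replicates 6 and 7). miR-26 had 1 of 2 higher (median 0.44, and 0.22 without), the clusters of miR-23, miR-24 and miR-27 had 1 of 5 higher (median -0.14, and -0.0045 without), and the cluster of miR-183, miR-96 and miR-182 had 1 of 3 higher (median 0.20, and 0.27 without). With TMM scaling the medians of the miR-17-92 list and of the clusters of miR-23, miR-24 and miR-27 were 0.16 and 0.07, above 0, where that of all miRNAs was 0.03. The groups of miR-29, of miR-103 and miR-107, and of miR-221 and miR-222 had 0 of 3, 0 of 2 and 0 of 2 in either direction. Of the 5 members of the miR-34 family, only miR-34a-5p had counts enough to be tested. Among 4 miRNAs of inflammation, miR-21a-5p was lower, at -0.37 ± 0.16 (SE), and miR-146a-5p had a log2 change of 0.24 ± 0.41. Of a lung list of 9 miRNAs, 5 were tested, of which 1 was higher (miR-196b-5p) and 2 lower (miR-34a-5p and miR-21a-5p), with a median of -0.23 by limma, -0.15 without replicates 6 and 7 and 0.045 by edgeR. The study drew that list from lungs of these mice, so it is not independent evidence of a direction.

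Marker miRNAs of other cells gave these counts at an unadjusted p under 0.05, by which 7.86% of all miRNAs were higher and 10.9% lower. Each list below had at most 1 member in either direction, too few to set against these shares. For leukocytes 1 of 5 was higher and 1 lower (median 0.35, and 0.07 without replicates 6 and 7): miR-155-5p was at 0.75 ± 0.36 and miR-142a-5p at -0.48 ± 0.22 (SE). For endothelium and platelets 0 of 2 was higher and 1 lower (miR-126a-5p, median of both -0.22, and -0.11 without). For epithelium 1 of 2 was lower (miR-141-3p, median -0.25, and -0.21 without), for liver 1 of 3 was lower (miR-194-5p, -0.54 ± 0.22, median -0.50, and -0.12 without), and for cardiac muscle and mesenchyme 0 of 2 each passed. The cardiac median was -0.24 by limma, but 0.31 without replicates 6 and 7 and 0.36 by edgeR, and the mesenchymal median was -0.67, and -0.65 without. The summed epithelial, liver and cardiac markers were lowest in replicates 6 and 7, at 106 and 135, 287 and 181, and 3.28 and 1.70 RPM. In replicates 1 to 5 they were at 230 to 640, 463 to 1720 and 10.5 to 50.6 RPM. The endothelial and platelet sum was 1350 and 671 RPM in replicates 6 and 7 and the mesenchymal sum 9.10 and 2.84 RPM, so that for both lists replicate 7 was lowest and replicate 6 was within the range of the other libraries.

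The change in C3H RBC was set beside that in C57 RBC, from 5 irradiated and 15 sham mice in month 6. Strain and month cannot be told apart, and the C57 mice were of both sexes where the C3H mice were all female. In C57 RBC limma called 0 of 229, with 14 at an unadjusted p under 0.05 (6.11%), and edgeR and DESeq2 each called miR-182-5p alone. The test of the difference between strains called 0 of 229 by limma and by edgeR, of which 12 (5.24%) and 22 had an unadjusted p under 0.05. DESeq2 called 1, miR-1981-5p (adjusted p = 0.033). Without irradiated C3H replicates 6 and 7 limma called 0 of 225, with 3 at an unadjusted p under 0.05. Without replicate 6 alone 4 had such a p, and without replicate 7 alone 1 did. With sex as a covariate limma called 0 as well, with 15 at an unadjusted p under 0.05, and the smallest adjusted p was 0.0873 in place of 0.76. miR-1981-5p was at 1.54 to 14.5 RPM in C57 sham libraries, with a median of 6.91, and at 3.23 to 8.71 in C57 irradiated libraries. The smallest p of the difference belonged to miR-29b-3p (0.57 ± 0.24), miR-194-5p (-0.70 ± 0.31), miR-7a-5p (-0.48 ± 0.21), miR-210-3p (-0.69 ± 0.31) and miR-421-3p (-0.81 ± 0.36; log2 change in C3H minus that in C57, with SE), all with an adjusted p of 0.76. miR-196b-5p was at 4.94 to 34.1 RPM in C57 sham and 17.02 to 38.7 in C57 irradiated libraries, with a log2 change of 1.08 ± 0.54 (SE) against 1.68 ± 0.49 in C3H. Their difference was 0.59 ± 0.73.

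The same C3H mice also gave WBC libraries, 6 irradiated and 5 sham. In a joint fit, 0 of 224 miRNAs differed in their change between the fractions by limma, edgeR or DESeq2, with 12 by limma (5.36%), 11 by edgeR and 14 by DESeq2 at an unadjusted p under 0.05, and C3H WBC alone had 0 calls and 15 (6.7%). miR-181d-5p had the smallest p, with a log2 change of 0.81 in RBC and -0.25 in WBC (difference 1.05 ± 0.39, SE; adjusted p = 0.725). miR-181b-5p (1.31 ± 0.49), miR-324-3p (-1.03 ± 0.40), miR-421-3p (-1.06 ± 0.43) and miR-330-5p (1.34 ± 0.54) followed, all at that adjusted p. The mouse of irradiated RBC replicate 7 also had the lowest miR-451a (1540 RPM) and miR-144-3p (2646 RPM) and the highest miR-16-5p (607466 RPM) of the 11 C3H WBC libraries. Its miR-486a-5p and miR-196b-5p, at 11355 and 133 RPM, ranked 7 and 8 of 11 from the lowest there, where in RBC they were the highest. The mouse of RBC replicate 6 was the fourth lowest for miR-451a in WBC, at 6319 RPM, and in the middle of the 11 for miR-144-3p and miR-16-5p, at 8742 and 495060 RPM. In lung, the libraries of these mice had the highest and the third highest miR-451a of 15, at 893 and 396 RPM. In heart they were the fourth lowest and the second lowest of 15, at 93.8 and 63.1 RPM, and in brain the ninth lowest and the third lowest, at 62.04 and 16.1 RPM, for the mice of replicates 6 and 7. Their miR-144-3p ranked 2 and 1 of 15 from the lowest in heart, at 31.7 and 20.9 RPM. It ranked 15 and 10 in lung, at 418 and 117 RPM, and 10 and 3 in brain, at 46.9 and 13.1 RPM.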

How the data were processed

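miRNA was measured in 15 C3H RBC libraries, with 20 C57 RBC and 11 C3H WBC libraries used for comparison. As the labels and methods describe, the authors made libraries with a commercial miRNA kit, trimmed the reads, aligned them with a cloud service to miRNAs of mm10, and left out runs of low yield. The deposited files hold raw counts of 1915 mature miRNAs, which the authors left unnormalised. Use of molecular identifiers and the assignment of reads shared by several miRNAs were not given in the sources used here, so limits drawn from counts cover counting error only.

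Groups came from the labels. Counts were filtered (filterByExpr, minimum count 10, minimum total 15) and fitted over all 35 RBC libraries in 4 groups (strain by irradiation) with voom, quantile normalisation and limma 3.58.1 in R 4.3.3, with Benjamini-Hochberg adjustment. Alternatives were edgeR 4.0.16, DESeq2 1.42.0, other scalings and filters, covariates, and fits without single libraries. Quality weights, fits without irradiated replicates 6 and 7, and the edgeR and DESeq2 fits without single libraries were added after seeing the data. Within each group, every pair of libraries differed by more than sampling noise (smallest chi-square per degree of freedom 87.3 over 49 pairs). Nothing but the animal numbers marked replicates as separate, so p-values measure the spread between these libraries. The members, lists and rules were chosen with earlier results of these data known. The fits were tested on simulated counts. Named miRNAs were the 20 with the smallest limma p, all calls of edgeR or DESeq2, the 5 most abundant, and the 2 to 4 with the smallest p per list, strain difference or fraction difference (5 for the differences). RBC and WBC libraries were matched by animal number; of 11 pairs 7 had deviations correlated over 0.1 (median 0.24). Loci are those of GENCODE M21 on GRCm38.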

Additional observations from a re-analysis of the deposited data

Results flagged for a closer look

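Of 84 groups of C3H RBC libraries examined (40 miRNAs, the total count and the number detected, in each of the irradiated and sham groups), 6 held a library far from the rest by Dixon's criterion on normalised values, and chance flags about 5% of groups. In sham libraries, replicate 7 was high for miR-30a-5p (gap over range 0.623) and low for miR-1981-5p (0.569), replicate 2 was high for miR-26b-5p (0.57), and replicate 6 was high for miR-34a-5p (0.555). Sham replicate 8 was low for miR-25-3p (1.0), where the other 7 sham libraries had 1 value in common because quantile normalisation gives equal ranks equal values. In irradiated libraries, replicate 3 was high for miR-122-5p (0.64). Irradiated replicates 6 and 7 were not picked out by this criterion, which compares the end library with its nearest neighbour, since they lay near each other.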

How the results depend on the processing

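The count of miRNAs changed in C3H RBC was 0 by limma and 0 with TMM, library size alone, the stricter filter, either covariate, quality weights, C3H libraries alone, or letter A or B alone. It was 12 by edgeR, 22 by DESeq2 and 3 with a minimum of 1 count in any library (miR-669f-3p, miR-7078-3p and miR-126b-3p, with 5 counts or fewer in each C3H library). With the fold minimum (1.17 on the log2 scale) these were 6, 14 and 1. Leaving out each C3H library in turn gave 0 to 4 for limma (4 without irradiated replicate 1 and 2 without irradiated replicate 4), 0 to 2 with the fold minimum, 0 to 22 for edgeR and 0 to 30 for DESeq2. edgeR called 4 or 5 without any of sham replicates 1 to 7 or irradiated replicate 5, 19, 20 and 22 without irradiated replicates 1, 2 and 3, and 0 without irradiated replicate 6 or 7. DESeq2 called 14 without sham replicate 3 or 4, 3 without irradiated replicate 6 and 0 without irradiated replicate 7. Both called 0 without irradiated replicates 6 and 7. The cause was not tested. The strain difference was 0 by limma, 1 by DESeq2 and 1 with a minimum of 1 count (miR-7079-3p, with at most 2 counts per library). The difference between RBC and WBC was 0 in every alternative run, the replicate block of the animal included (0).

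The log2 change reversed in letter A alone for miR-30e-5p (0.0114), miR-34a-5p (0.068), miR-19a-3p (0.17), miR-872-5p (-0.029), miR-1981-5p (-0.31), let-7b-5p (-0.027), miR-423-5p (-0.043), miR-185-3p (-0.36), miR-1198-5p (-0.024), miR-3074-5p (-0.39), miR-486a-5p (-0.054), miR-486b-5p (-0.17), miR-183-5p (-0.12) and miR-1970 (-0.13). It reversed in letter B alone for miR-122-5p (1.196), which also reversed without sham replicate 1 (0.27) or 3 (0.49) and ranged from -1.27 to 0.49 as single libraries were left out. Without irradiated replicates 6 and 7 it reversed for miR-1198-5p (-0.0025) and miR-486b-5p (-0.18). Depth limited the miRNAs of a few RPM, which rested on counts of about 10 per library.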
